A study of Mus musculus with 6 samples.

Results

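The non-collagen proteins of the extracellular matrix, together with the enzymes that cut it and the inhibitors of those enzymes, were followed in primary hippocampal cultures of *Fmr1* knockout (KO) mice and of their wild type (WT) counterparts. The set has 55 genes, listed by name with earlier results of these data known. It holds lecticans and their link proteins, tenascins, small leucine-rich proteoglycans, fibulins and fibronectin, and laminins and other basement membrane proteins. It also holds matricellular proteins, proteins of collagen folding and crosslinking, and the Mmp, Timp and Adamts genes. All 55 were found among the 47086 loci of the deposited table, each at 1 locus. Both groups were C57BL/6 hippocampal cultures sequenced after 14 days in vitro, with 3 libraries labelled WT and 3 labelled Fmr1-KO, and no other treatment or allele is given. The mice of the study were male KO animals and WT littermates, and the cultures were made from newborn pups. The sex of those pups, the litter or culture behind each library and the knockout allele are not stated in the labels or the methods, so p-values measure the spread between libraries, which may be technical.

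The matrix fills the space between cells. In brain it is poor in fibrillar collagen and built on hyaluronan, to which lecticans are tied by link proteins and tenascins, and around some neurons this mesh condenses into perineuronal nets. Laminins, nidogens and the proteoglycans agrin and perlecan form the basement membranes of blood vessels and meninges. Matrix metalloproteinases and Adamts proteases cleave these proteins at synapses and elsewhere, and Timp proteins inhibit them.

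Values are FPKM, by the name of the unit fragments corrected for transcript length and library size, although how the libraries were scaled is not stated. Since the unit corrects for length, levels were compared between genes, though single libraries kept a trend with transcript length, described below. Genotypes were compared with limma on log2(FPKM + 0.1), at every locus whose mean FPKM reached 1 in WT or in *Fmr1* KO, and adjusted p-values are from the Benjamini-Hochberg method over all 13195 such loci. Changes are KO minus WT on this log2 scale, which understates those of weakly expressed genes. *Fmr1* itself was at 19.0, 19.5 and 19.7 FPKM in WT and at 23.1, 21.8 and 18.5 in *Fmr1* KO, a log2 change of 0.12 ± 0.08 (standard error). The genotypes overlapped (adjusted p = 0.536 in limma). An FPKM over the whole gene cannot tell a disrupted from an intact transcript, so it is no check of the labels, and "*Fmr1* KO" means the libraries so labelled throughout. Absolute read depth is unknown. The neuronal markers Camk2a and Slc17a7 and the astrocyte marker Gfap were abundant in every library, at mean FPKM of 519.3, 281.6 and 605.2. In such bulk RNA, fewer cells of a type and less RNA per cell cannot be told apart.

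Sparcl1, the astrocyte-secreted protein hevin, made up 44.8% of the summed mean FPKM of the 55 genes, at 839.5. Next came the lectican Ncan (neurocan) at 223.3, the protease inhibitor Timp2 at 131.5, the lectican Bcan (brevican) at 129.1 and the calcium-binding glycoprotein Sparc at 82.0, and these 5 genes held 74.9% of the sum. Timp2 and Bcan overlapped between libraries, so their order is not resolved. Above 100 FPKM there were 4 genes, between 10 and 100 there were 17, between 1 and 10 there were 20, and 14 were at 1 or below, with Ogn lowest at 0.0509.

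**Figure D1:**
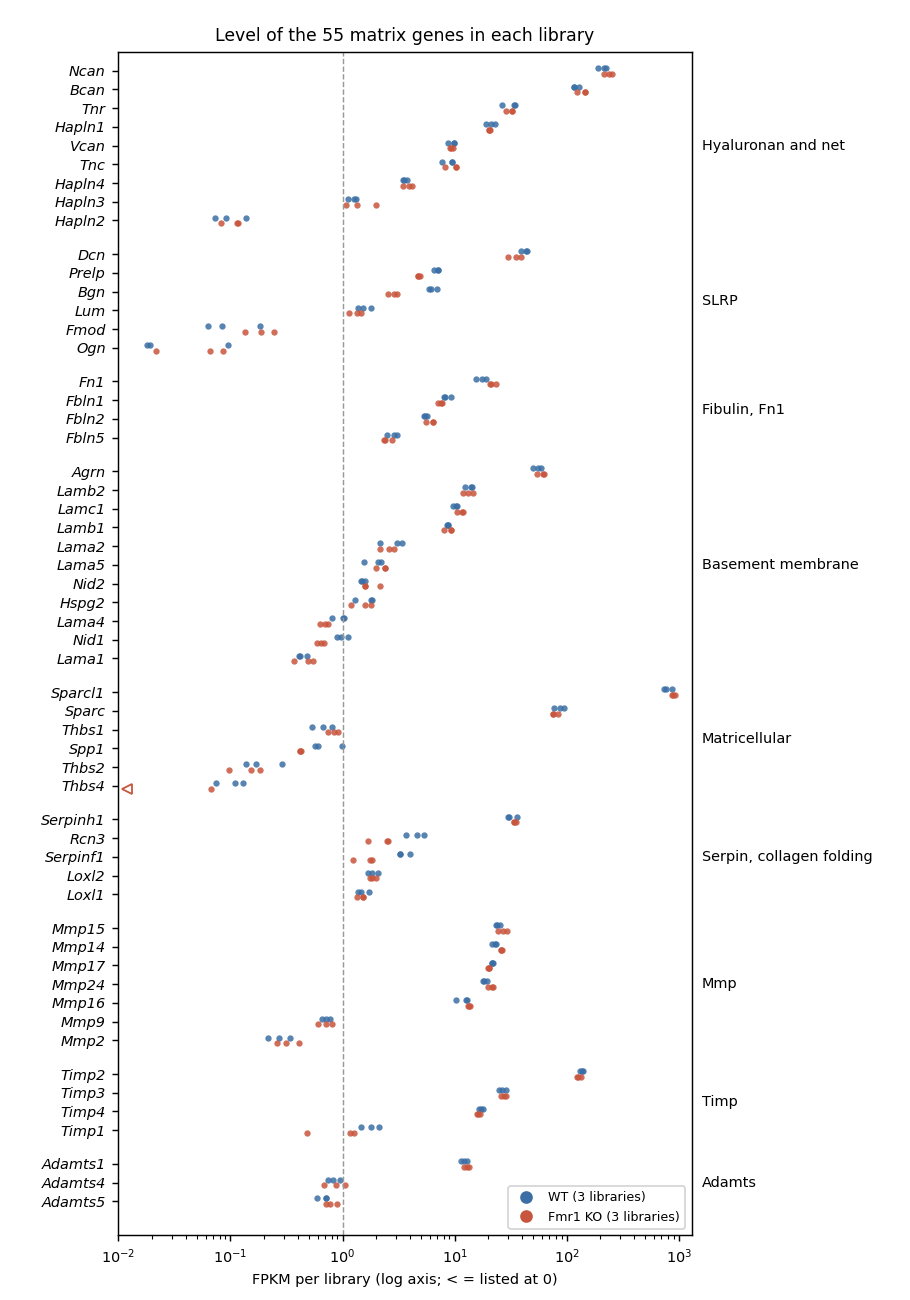
FPKM (log axis) of each of the 55 matrix genes in the 3 WT (blue) and 3 *Fmr1* KO (red) libraries, grouped by class, with genes in order of mean level; the dashed line is 1 FPKM and an open triangle marks a value listed at 0. Sparcl1 stands highest at 839.5 FPKM, and the genotypes separate most visibly in Bgn, Serpinf1 and Rcn3.

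Of the 55 genes, 41 reached the FPKM minimum and were tested. At an adjusted p below 0.05, 3 of the 41 were lower in *Fmr1* KO, where 0.174% of all tested loci were: Bgn, Prelp and Serpinf1. None was higher, where 0.0909% of all loci were. At an unadjusted p below 0.05, 7 were lower (7.77% of all loci) and 6 were higher (6.99% of all loci). The 3 KO libraries all lay below the 3 WT libraries in 7 of the 41 and all above them in 6, where 10.3% and 10.8% of all loci did so. Both counts of 7 include Timp1, which reached the FPKM minimum only through WT, where it was high. The tested genes had a median log2 change of -0.003, beside 0.005 for all loci, with 20 above 0 and 21 below. Since the set was chosen with earlier results of these data known, none of these counts tests it as a class.

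**Figure D2:**
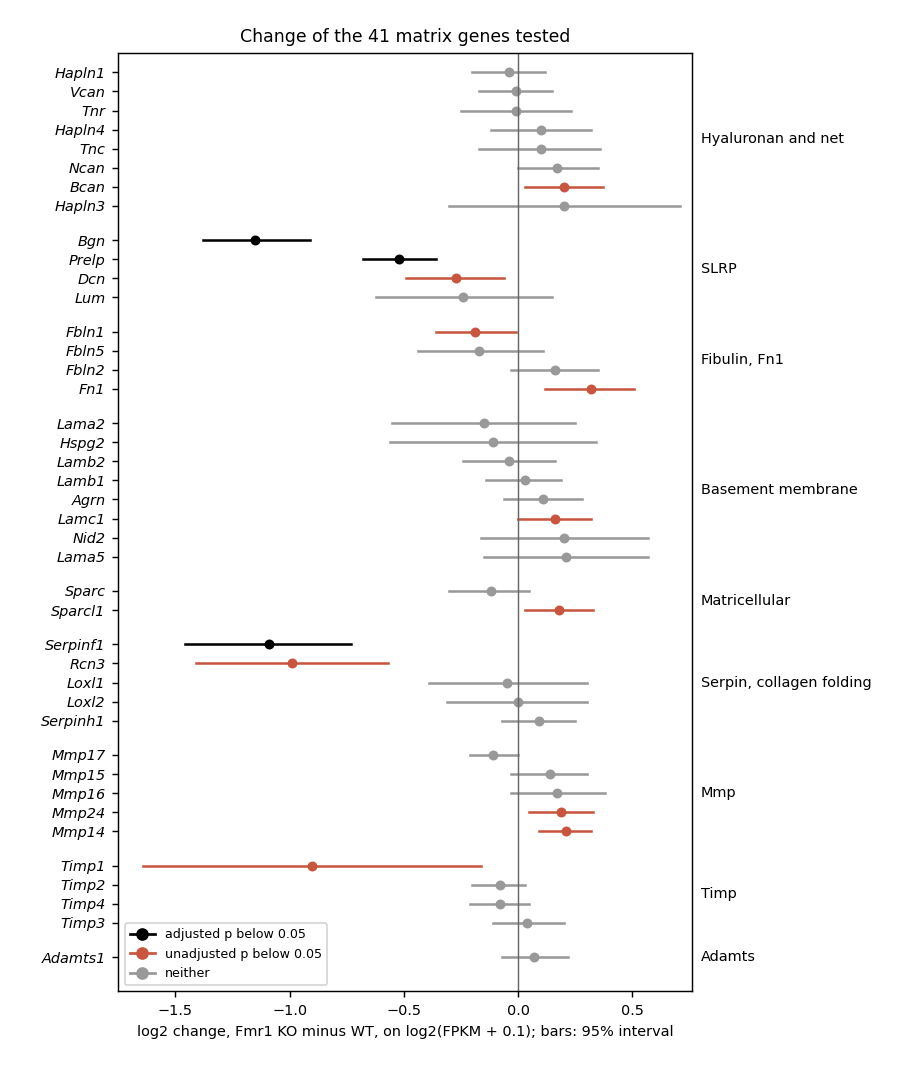
Log2 change (KO minus WT, on log2(FPKM + 0.1)) of the 41 matrix genes tested, with 95% intervals from limma, by class. Bgn at -1.15, Serpinf1 at -1.09, Rcn3 at -0.99, Timp1 at -0.90 and Prelp at -0.52 lie farthest to the left, while the largest change to the right is 0.32, for Fn1.

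The small leucine-rich proteoglycans held 2 of the 3 called genes. Bgn encodes biglycan, which binds collagen and growth factors such as those of the TGF-beta family. Its FPKM was 7.03, 5.90 and 6.15 in WT, against 2.88, 2.53 and 3.04 in *Fmr1* KO. The highest KO library was below the lowest WT library by a wide margin, and the log2 change was -1.15 ± 0.10 (standard error, 95% interval -1.38 to -0.91, adjusted p = 0.00374 in limma). By p, Bgn ranked 5 of the 13195 loci. Prelp encodes a proteoglycan-like protein that binds heparan sulphate and collagen. It was at 6.54, 7.08 and 7.09 FPKM in WT and at 4.67, 4.76 and 4.87 in *Fmr1* KO. The libraries of each genotype were tightly grouped and apart, with a log2 change of -0.52 ± 0.07 (95% interval -0.68 to -0.36, adjusted p = 0.0306 in limma).

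Decorin (Dcn), the closest relative of biglycan and the most abundant gene of this class, was at 43.8, 43.2 and 39.0 FPKM in WT and at 39.0, 35.5 and 30.1 in *Fmr1* KO. Its log2 change of -0.27 ± 0.09 had an unadjusted p of 0.0166 and did not pass adjustment (adjusted p = 0.237 in limma), and the lowest WT library was level with the highest KO library. Lum (lumican) had a log2 change of -0.24 with overlapping libraries. All 4 tested genes of the class were below 0, with a median of -0.40. Fmod and Ogn stayed under the minimum, with mean FPKM of 0.150 and 0.0509. Their KO to WT ratios were above 1, at 1.71 and 1.3, with overlapping libraries.

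Serpinf1 encodes pigment epithelium-derived factor, a secreted serpin without protease-inhibiting activity that is known for neurotrophic and anti-angiogenic effects. It was at 4.0, 3.26 and 3.29 FPKM in WT and at 1.82, 1.25 and 1.76 in *Fmr1* KO. No KO library reached the WT range, and the log2 change was -1.09 ± 0.16 (95% interval -1.46 to -0.73, adjusted p = 0.0368 in limma). Rcn3, a calcium-binding protein of the endoplasmic reticulum, was at 4.60, 5.34 and 3.67 FPKM in WT and at 1.68, 2.51 and 2.52 in *Fmr1* KO. Its libraries were also apart, with a log2 change of -0.99 ± 0.18, but it fell short of the threshold (adjusted p = 0.0753 in limma). The other 3 genes of this class did not share these low values. Serpinh1, the collagen chaperone Hsp47 and the most abundant of them, was at 30.2, 30.7 and 35.9 FPKM in WT and at 34.0, 33.8 and 35.2 in *Fmr1* KO, a log2 change of 0.09 with overlapping libraries. The crosslinking enzymes Loxl1 and Loxl2 overlapped too, with KO to WT ratios of mean FPKM of 0.965 and 0.995.

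The calls differed in how far they held with fewer libraries. Over all loci, leaving out a single library gave 4 to 8 higher and 10 to 14 lower at an adjusted p below 0.05, in place of 12 and 23. Bgn kept an adjusted p of 0.0119 to 0.0241 in limma with each library left out in turn. Prelp was at 0.0492 without WT replicate 1 and at 0.0975 to 0.13 when any other library was left out. Serpinf1 was at 0.0813 to 0.128 in limma whichever of the 6 was left out, though the 2 genes' log2 changes stayed at -0.56 to -0.50 for Prelp and at -1.18 to -0.93 for Serpinf1. Without any FPKM minimum, where 26981 loci were tested, Prelp had an adjusted p of 0.0846 and Serpinf1 of 0.155 in limma.

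**Figure D3:**
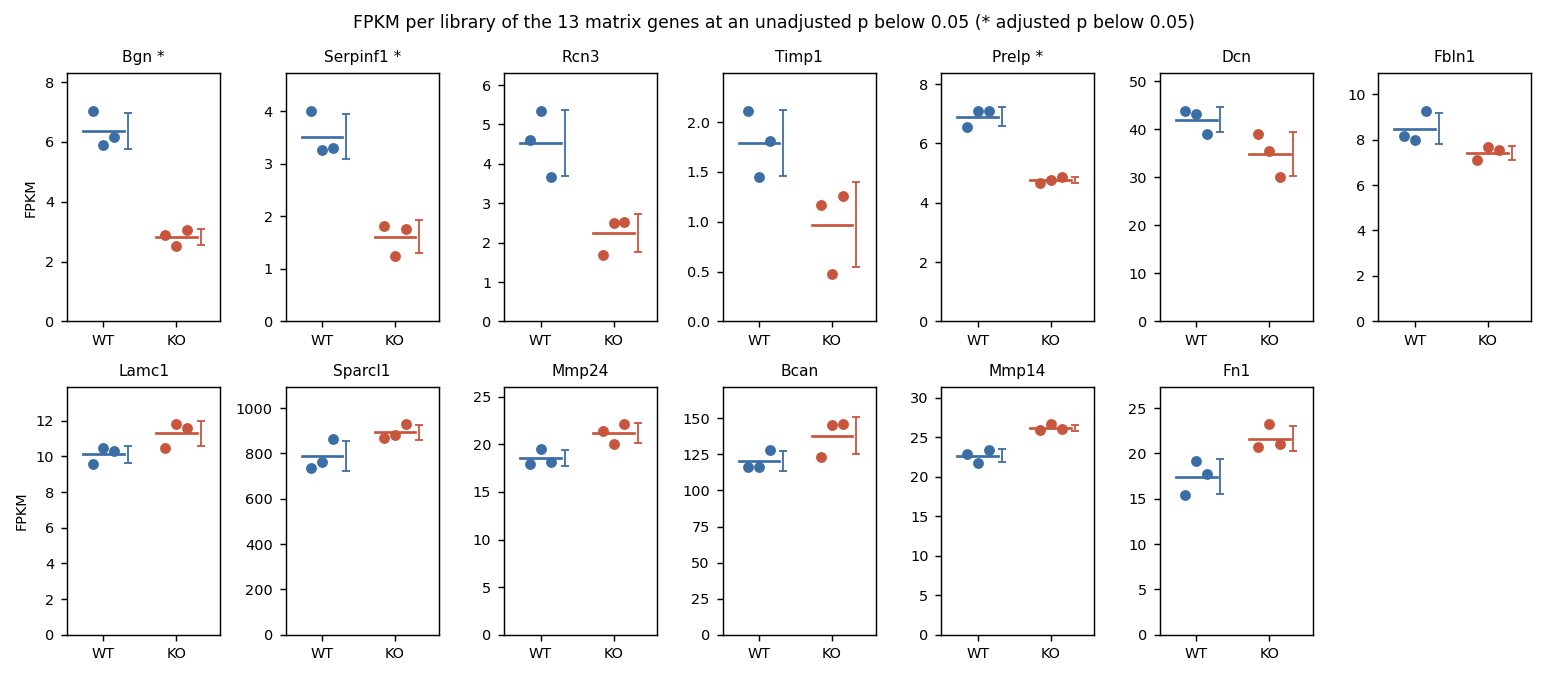
FPKM (linear axis from 0) in each library for the 13 matrix genes at an unadjusted p below 0.05, with the mean as a line and the SD as a bar (n = 3 per genotype). Bgn, Serpinf1, Rcn3 and Prelp show KO points wholly below the WT points, while in Sparcl1, Mmp14, Mmp24 and Fn1 the KO points lie wholly above by smaller folds.

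The 3 called genes lie on different chromosomes of the GRCm38.p6 annotation from RefSeq. Bgn spans chrX:73483601-73495936 on the plus strand, 4.77 Mb from *Fmr1*, so a change of Bgn through the loss of *Fmr1* and one through sequence inherited with the *Fmr1* allele cannot be told apart. Among the 73 tested loci within 10 Mb of *Fmr1*, Bgn included, 2 were lower and 0 higher at an adjusted p below 0.05 in limma (0.174% and 0.0909% of all loci). Before adjustment, 9 were lower and 2 higher at the same threshold (7.77% and 6.99% of all loci). Prelp spans chr1:133910304-133930102 on the minus strand, and in the GENCODE annotation its exons overlap those of Gm15851 on the other strand. Serpinf1 spans chr11:75410029-75422623 on the minus strand.

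The 250 bases before the start sites of these 3 genes are shown because they are the matrix genes that passed the test together. They come from the RefSeq promoter table on GRCm38.p6, which held 37 of the 55 genes, and are written along the strand of each gene. They are chrX:73483351-73483600 for Bgn, chr1:133921402-133921651 for Prelp and chr11:75422624-75422873 for Serpinf1. The start site of Prelp in that table lies inside the gene span given above. Capitals mark matches, on either strand, to the GC box GGGCGG or the CCAAT box CCAAT. The TATA box TATAAA and the E-box CACGTG were searched as well.
Bgn: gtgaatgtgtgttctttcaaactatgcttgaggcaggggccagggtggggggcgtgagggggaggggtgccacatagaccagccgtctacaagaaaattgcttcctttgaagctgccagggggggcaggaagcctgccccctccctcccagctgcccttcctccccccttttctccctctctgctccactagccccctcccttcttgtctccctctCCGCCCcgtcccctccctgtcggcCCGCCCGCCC
Prelp: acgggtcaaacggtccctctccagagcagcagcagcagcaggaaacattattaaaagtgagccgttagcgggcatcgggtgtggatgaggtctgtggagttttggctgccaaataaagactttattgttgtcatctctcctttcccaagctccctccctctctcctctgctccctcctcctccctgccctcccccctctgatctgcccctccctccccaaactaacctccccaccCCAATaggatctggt
Serpinf1: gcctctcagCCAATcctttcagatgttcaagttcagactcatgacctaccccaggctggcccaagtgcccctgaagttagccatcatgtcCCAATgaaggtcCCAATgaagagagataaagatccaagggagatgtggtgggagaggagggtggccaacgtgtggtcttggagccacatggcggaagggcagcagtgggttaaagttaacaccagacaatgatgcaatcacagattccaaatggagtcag
Bgn held 3 GC boxes, of which the last 2 share letters and lie 10 and 6 bases before the start site, and 7 CpG dinucleotides. Prelp held 1 CCAAT box, 15 bases before the start site, and 5 CpG. Serpinf1 held 3 CCAAT boxes, the nearest 148 bases before the start site, and 2 CpG. Over all 32851 promoters of this length, 32.7% held a GC box, 33.8% a CCAAT box, 12.4% a TATA box and 6.0% an E-box, and the median was 6 CpG. None of the 4 motifs was held by all 3 genes, and such matches are letters, not measured binding.

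The lecticans and their partners, which carry the brain's hyaluronan mesh, contained no called gene. Ncan was at 189.6, 216.2 and 223.9 FPKM in WT and at 217.2, 240.5 and 252.1 in *Fmr1* KO, a log2 change of 0.17 (unadjusted p = 0.0501 in limma). Bcan was at 116.4, 116.2 and 128.1 FPKM in WT and at 123.0, 145.4 and 145.8 in *Fmr1* KO, a log2 change of 0.20 ± 0.07 (unadjusted p = 0.0277, adjusted p = 0.276 in limma). In both lecticans KO replicate 1 fell within the WT range. Vcan (versican) had a KO to WT ratio of 0.993. The tenascins Tnr and Tnc, which crosslink lecticans, had log2 changes of -0.01 (95% interval -0.25 to 0.23) and 0.10 (-0.17 to 0.36). The link proteins Hapln1, Hapln3 and Hapln4, which fasten lecticans to hyaluronan, ranged from -0.04 to 0.20, and the libraries overlapped in all 3. Hapln2, with a mean FPKM of 0.103, was not tested.

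Fn1, which encodes fibronectin, the ligand of several integrins, was at 15.4, 19.2 and 17.7 FPKM in WT and at 20.7, 23.2 and 21.0 in *Fmr1* KO. Every KO library was above every WT library, and the log2 change of 0.32 ± 0.08 was the highest among the 41 genes, with an unadjusted p of 0.00496 that did not pass adjustment (adjusted p = 0.161 in limma). Fbln1 (fibulin-1), which binds fibronectin, was apart in the other direction, at 8.17, 8.0 and 9.25 FPKM in WT and 7.08, 7.66 and 7.52 in *Fmr1* KO (log2 change -0.19 ± 0.08, adjusted p = 0.303 in limma). Fbln2 at 0.16 and Fbln5 at -0.17 overlapped.

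In the basement membrane class, agrin (Agrn), which also organises the neuromuscular synapse, was the most abundant at 50.1, 59.0 and 56.0 FPKM in WT and 54.7, 62.6 and 61.2 in *Fmr1* KO, with overlapping libraries. Lamc1, the gamma chain shared by most laminins, was at 9.58, 10.5 and 10.3 FPKM in WT and at 10.5, 11.8 and 11.6 in *Fmr1* KO. These groups touched without overlapping, and the log2 change was 0.16 ± 0.07 (unadjusted p = 0.0493, adjusted p = 0.337 in limma). The other 6 tested genes of the class, Lama2, Lama5, Lamb1, Lamb2, Nid2 and Hspg2 (perlecan), had log2 changes of -0.15 to 0.21, all with overlapping libraries.

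Nid1 and Lama4 stood apart but were under the FPKM minimum. Nid1 (nidogen-1), which links laminin to collagen IV, was at 0.887, 1.13 and 0.977 FPKM in WT and at 0.637, 0.679 and 0.593 in *Fmr1* KO. Lama4, a laminin chain of blood vessel walls, was at 0.811, 1.01 and 1.04 FPKM in WT and at 0.704, 0.747 and 0.627 in *Fmr1* KO. Both were lower in every KO library. Lama1, with a mean FPKM of 0.455, overlapped.

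Sparcl1, which promotes synapse formation, was at 736.5, 763.0 and 861.4 FPKM in WT and at 867.7, 880.6 and 927.7 in *Fmr1* KO. The lowest KO library lay just above the highest WT library, and the log2 change was 0.18 ± 0.07 (unadjusted p = 0.0219, adjusted p = 0.259 in limma). Its relative Sparc had a log2 change of -0.12 with overlapping libraries. The other matricellular genes were all under the minimum. Spp1 (osteopontin) was at 0.567, 0.991 and 0.603 FPKM in WT and at 0.421, 0.420 and 0.425 in *Fmr1* KO, and Thbs4 (thrombospondin-4) was at 0.130, 0.111 and 0.0740 in WT and listed at 0, 0 and 0.0667 in *Fmr1* KO. In both genes the KO libraries lay below the WT libraries, in Thbs4 by a small margin. Thbs1 and Thbs2, known as astrocyte signals for synapse formation, overlapped.

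Under the minimum, then, 4 of 14 genes had separate groups, all lower in *Fmr1* KO: Nid1, Lama4, Spp1 and Thbs4. Of all 13786 loci under the minimum that were not at 0 throughout, 8.03% had separate groups in either direction. The exact permutation test gave p = 0.1 for each of the 4, the smallest that 3 libraries against 3 allow. That value was fixed in advance, since the 4 were picked for their separate groups, so it adds nothing to the count. With no minimum, their unadjusted p in limma was 0.0157, 0.0641, 0.0453 and 0.0211, and no adjusted p was below 0.382. These limma values come from the same picked genes and are no separate test.

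Among the metalloproteinases, the 5 membrane-bound members were above the FPKM minimum and the secreted Mmp2 and Mmp9 below it. Mmp14 was at 22.9, 21.7 and 23.4 FPKM in WT and at 25.9, 26.6 and 26.0 in *Fmr1* KO, a log2 change of 0.21 ± 0.05 (unadjusted p = 0.00283, adjusted p = 0.132 in limma). Mmp24, which is mostly neuronal, was at 17.9, 19.5 and 18.2 FPKM in WT and at 21.4, 20.0 and 22.1 in *Fmr1* KO, a log2 change of 0.19 ± 0.06 (unadjusted p = 0.0137, adjusted p = 0.222 in limma). In both genes all KO libraries were above all WT libraries. Mmp16 was apart in the same direction (log2 change 0.17, unadjusted p = 0.0901 in limma), and Mmp15, the most abundant of the class, overlapped at 23.6, 24.0 and 25.6 FPKM in WT and 24.3, 26.9 and 29.4 in *Fmr1* KO. These 4 proteases have a transmembrane anchor. Mmp17, which has a lipid anchor instead, had every KO library below every WT library (log2 change -0.11, unadjusted p = 0.0555 in limma).

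Mmp9, a secreted gelatinase whose mRNA is a known binding partner of FMRP, the *Fmr1* protein, is named here after its values were seen. It was at 0.656, 0.715 and 0.780 FPKM in WT and at 0.812, 0.706 and 0.606 in *Fmr1* KO, with a KO to WT ratio of 0.987 and the groups interleaved. The other secreted gelatinase, Mmp2, had a mean FPKM of 0.302 and overlapped. Adamts1, which cleaves lecticans, was at 11.5, 12.2 and 12.8 FPKM in WT and at 12.2, 13.3 and 13 in *Fmr1* KO (log2 change 0.07, 95% interval -0.07 to 0.22). Adamts4 and Adamts5, the other lectican-cleaving members, were under the minimum, with mean FPKM of 0.854 and 0.733 and overlapping groups.

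Of the inhibitors, Timp1 had the largest change, but it reached the FPKM minimum only through WT (mean FPKM 1.79, against 0.972 in *Fmr1* KO). Its place among the tested genes is therefore partly fixed by the minimum. Timp1 was at 2.11, 1.45 and 1.81 FPKM in WT and at 1.17, 0.479 and 1.26 in *Fmr1* KO. KO replicate 2 was far lower than the rest, and the other KO libraries lay just below the lowest WT library. The log2 change was -0.90 ± 0.32, with a wide 95% interval of -1.64 to -0.16 (unadjusted p = 0.0221, adjusted p = 0.259 in limma), and it was -0.50 without KO replicate 2. Timp2 was at 136.3, 138.9 and 130.7 FPKM in WT and at 133.9, 122.6 and 126.8 in *Fmr1* KO, a log2 change of -0.08 (-0.20 to 0.03). Timp3 at 0.04 and Timp4 at -0.08 overlapped as well. Timp1, Timp3 and Timp4 lie within the synapsin genes Syn1, Syn3 and Syn2, and the exons of Timp3 and Timp4 overlap exons of their host on the other strand. Whether the libraries kept strand is not stated in the labels or the methods, so reads of these pairs may not be separable. Syn1, Syn2 and Syn3 had log2 changes of 0.04, 0.02 and 0.37. Exons also overlap on the other strand for Nid2 with Rtraf and Rcn3 with Gm45669, and Ogn lies within Cenpp.

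The receptors of the matrix and the enzymes that build its sugar chains were counted as neighbours of the set. Of 35 receptor genes (integrins, syndecans, glypicans and others), 27 were tested, and at an unadjusted p below 0.05 in limma 3 were higher and 1 was lower, where 6.99% and 7.77% of all loci were. A share of this size does not set the receptors apart from other loci. The higher ones were Itgav, a partner in fibronectin receptors, at 0.23 on the log2 scale (adjusted p = 0.205 in limma), the glypican Gpc1 with 0.15 (adjusted p = 0.233) and the laminin receptor chain Itga6 with 0.17 (adjusted p = 0.335). The glypican Gpc5 was lower, with -0.17 (adjusted p = 0.26 in limma). Of 32 genes of glycan synthesis and breakdown, 29 were tested, and the hyaluronidase gene Hyal2 was the 1 below that threshold, with -0.24 on the log2 scale (adjusted p = 0.308 in limma). None of either list passed adjustment in limma. The medians were 0.04 and -0.031, beside 0.005 for all loci. Sdc3 and Chst13 were listed at 0 in all libraries.

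Markers of other cell types that a hippocampal culture could hold moved with genotype in part. The 16 microglia genes summed to 26.9, 23.3 and 25.7 FPKM in WT and to 15.9, 12.8 and 15.9 in *Fmr1* KO. Of these, 6 were tested and had an unadjusted p below 0.05 in limma on the lower side, but C1qa, C1qb, C1qc and Lyz2 reached the FPKM minimum only through WT, where they were high, so that count is partly fixed by the minimum. Without regard to the minimum, 9 of 16 had KO libraries wholly below WT and 0 above. Of all tested loci, 7.77% were lower at an unadjusted p below 0.05 in limma, 10.3% were wholly lower and 10.8% wholly higher. Of loci under the minimum, 8.03% were apart in either direction. The same shares apply to the endothelial counts below. Lyz2 passed adjustment (log2 change -2.87, adjusted p = 0.0359 in limma). Aif1 and Tmem119 were listed at 0. The 12 endothelial genes summed to 11.6 to 13.7 FPKM in WT and to 9.05 to 11.1 in *Fmr1* KO, with Cldn5 listed at 0. Most of that sum was Egfl7, whose own libraries overlapped (9.64, 7.81 and 8.31 FPKM in WT, 8.15, 7.97 and 6.01 in *Fmr1* KO), 2 of the 12 genes (Pecam1 and Tie1) were wholly lower, and Slco1a4 was wholly higher, with means of 0.0102 FPKM (WT) and 0.0635 FPKM (KO). The sums of both lists were lower in every KO library, as were 11 of the 55 matrix genes, while 6 were higher in every KO library. The 11 were Bgn, Prelp, Serpinf1, Rcn3, Timp1, Fbln1, Mmp17, Spp1, Thbs4, Nid1 and Lama4. The part of these cell types in those results was not tested.

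The lists for fibroblasts and mural cells, common sources of small leucine-rich proteoglycans and basement membrane, did not separate in their sums, which rest on a few genes. The 17 fibroblast genes summed to 6.31 to 7.42 FPKM in WT and to 6.61 to 7.06 in *Fmr1* KO, with Islr most abundant, Col1a1 and Col3a1 at mean FPKM of 0.508 and 0.308, and Slc22a6 listed at 0. Of these genes, 1 was wholly lower in *Fmr1* KO (Crabp2, mean FPKM 0.463 in WT and 0.0519 in *Fmr1* KO) and 1 wholly higher (Col1a2, 0.303 and 0.485). The 12 mural genes, led by Notch3, summed to 12 to 14.1 FPKM in WT and to 12 to 14.0 in *Fmr1* KO. Of these, 2 were wholly lower (Tagln, mean FPKM 0.597 in WT and 0.276 in *Fmr1* KO, and Abcc9, 0.0542 and 0.0115) and 0 wholly higher. The 7 choroid plexus genes summed to 1.01 to 1.67 FPKM in WT and to 53.9 to 63.8 in *Fmr1* KO, almost all of it Ttr at 56.6, 52.0 and 60.7 (adjusted p = 4.47e-07 in limma), 4 of the 7 were wholly higher in *Fmr1* KO, and Kl was listed at 0. The 8 excitatory neuron genes summed to 856.0 to 893.9 FPKM in WT and to 894.2 to 960.3 in *Fmr1* KO, with Camk2a most abundant. Every KO sum of this list was above every WT sum, at the closest 894.2 against 893.9. The sums overlapped between genotypes for 12 astrocyte genes (1905.5 to 2246.9 in WT, 1976.4 to 2180.7 in *Fmr1* KO), 13 oligodendrocyte lineage genes (413.3 to 477.5 and 446.0 to 501.6) and 11 inhibitory neuron genes (353.2 to 372.3 and 331.3 to 379.3), whose most abundant gene was Sst. At an unadjusted p below 0.05 in limma, 0 fibroblast, mural and endothelial genes, 2 astrocyte genes (both lower), 2 oligodendrocyte lineage genes (both higher), 2 excitatory genes (1 in each direction) and 6 inhibitory genes (4 higher, 2 lower) were found. Of all tested loci, 6.99% were higher and 7.77% lower at that threshold. Wholly higher in *Fmr1* KO were 2 excitatory, 3 inhibitory, 2 oligodendrocyte lineage and 0 astrocyte genes. Wholly lower were 2 excitatory, 1 inhibitory, 0 oligodendrocyte lineage and 1 astrocyte genes. Among all tested loci, 10.8% were wholly higher and 10.3% wholly lower. Of loci under the minimum, 8.03% were apart in either direction.

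**Figure D4:**
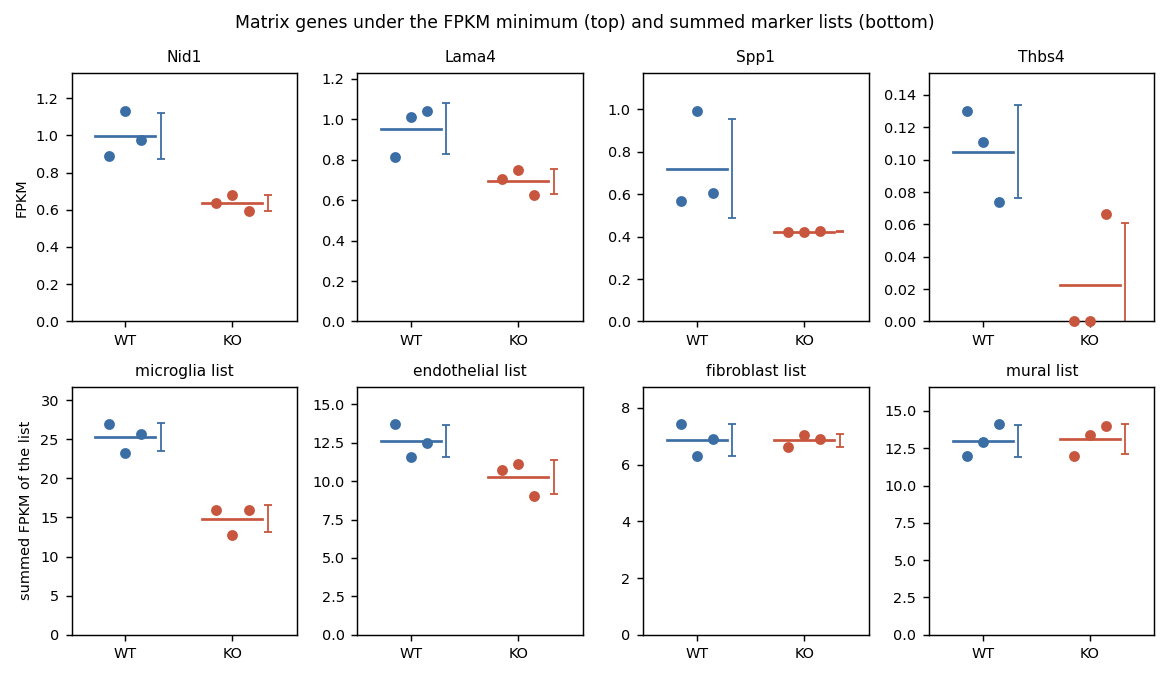
Top, FPKM per library of the 4 matrix genes under the minimum whose genotypes were apart; bottom, summed FPKM of the microglia, endothelial, fibroblast and mural marker lists, with means as lines and SD as bars (n = 3; a bar reaching below 0 is cut). The KO points are lower in all 4 genes and in the microglia and endothelial lists, and mixed with WT in the other 2 lists.

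Part of the spread within a genotype followed transcript length. WT replicate 1 was the lowest WT library for 21 of the 41 tested genes and *Fmr1* KO replicate 1 the lowest KO library for 25, where 37.2% and 35.5% of all tested loci had these libraries lowest. For the 10 tested genes with the longest transcripts (7106 to 14187 bases), both were lowest in all 10: Hspg2, Vcan, Tnr, Lama5, Lama2, Agrn, Fn1, Lamc1, Ncan and Tnc. Among the untested genes, Adamts5 (10791 bases) and Lama1 (9526 bases) are of similar length and did not share this: Adamts5 was lowest in WT replicate 2 and KO replicate 3, and Lama1 in WT replicate 3 and KO replicate 1. Across the 41 genes, the correlation of a library's deviation from its genotype mean with log transcript length was -0.73, 0.62 and 0.34 for WT replicates 1 to 3 and -0.46, 0.47 and -0.14 for the KO replicates, beside -0.15 to 0.16 over all loci with a length. These are descriptions across genes, which share the library and its fragments. How often these libraries were lowest among other loci of similar length is not given. With the length trend of each library removed, Bgn, Prelp and Serpinf1 had adjusted p-values of 0.00281, 0.0216 and 0.0267 in limma, and before adjustment 6 genes were higher and 8 lower. With both replicate 1 libraries left out, 6 were higher and 6 lower, and Bgn alone passed adjustment.

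**Figure D5:**
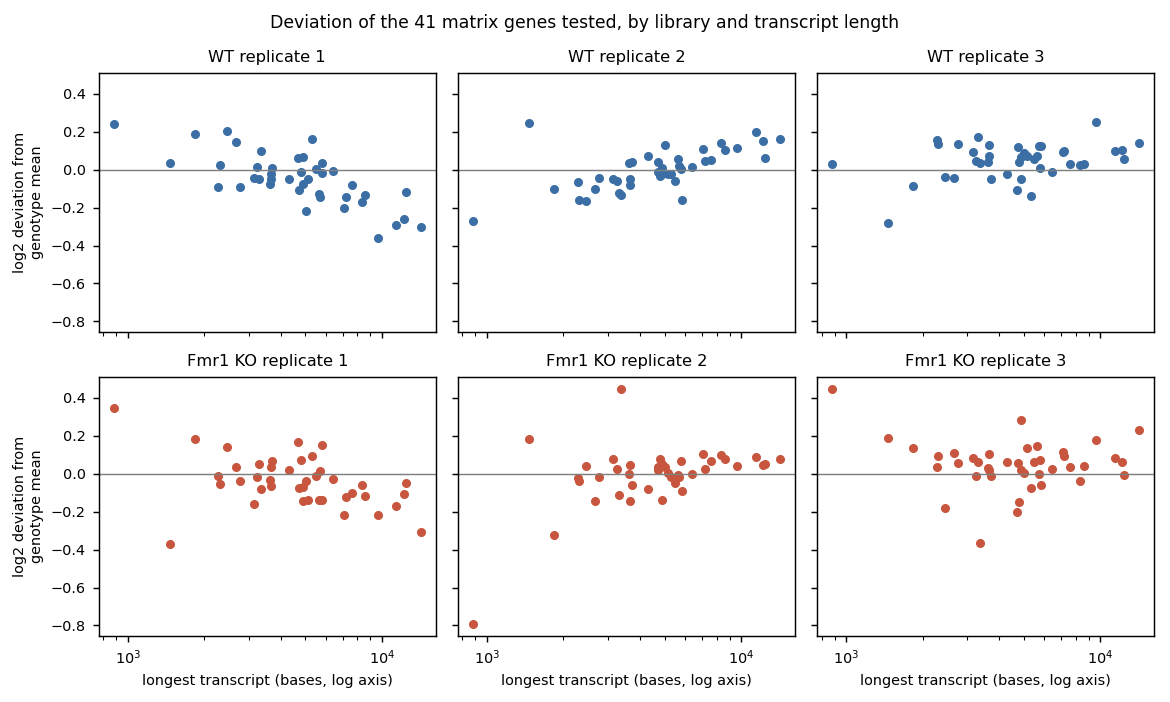
Log2 deviation of each of the 41 tested matrix genes from its genotype mean (vertical axis) against its longest transcript in bases (log axis), 1 panel per library. Long transcripts lie below 0 in replicate 1 of both genotypes and mostly above 0 in replicate 2.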

How the data were processed

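Total RNA of 3 WT and 3 *Fmr1* KO hippocampal cultures was sequenced. According to the study's methods and the submitters' processing notes, reads were clipped with Fastx Clipper, trimmed with sickle, mapped to GRCm38 with TopHat2, assembled with Cufflinks and compared with Cuffdiff. Not given in the sources used here are versions, annotation, strandedness and library scaling. The table deposited by the authors gives FPKM per library, a group FPKM, and a p-value and q-value of their comparison; only the FPKM per library were used. FPKM are not counts, so the depth is unknown, no counting interval is given, and the spread between 3 libraries sets the precision. The table has 48100 rows, 462 without a symbol, for 47086 loci, of which 20105 were at 0 in every library.

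Groups came from the sample labels. Loci reaching a mean FPKM of 1 in WT or *Fmr1* KO entered the comparison on log2(FPKM + 0.1) with limma 3.58.1 in R 4.3.3 (genotype only, mean-variance trend, two-sided, Benjamini-Hochberg adjustment), and the code was tested on simulated data. Single values under the minimum had a two-sided exact permutation test over the 6 libraries. The 55 genes, the receptor and glycan lists and the marker lists for microglia, endothelial cells, fibroblasts, mural cells, astrocytes, oligodendrocyte lineage, excitatory and inhibitory neurons and choroid plexus were chosen with earlier results of these data known. Values per library are given for genes below an adjusted or unadjusted p of 0.05 and for the most abundant gene of each class; of the receptor and glycan lists, the 3 smallest p in each direction are named, and of the marker lists, the genes passing adjustment and the most abundant one. A few other genes are given as group examples, and these, with the 4 genes under the minimum, were chosen after their values were seen. As alternatives, the pseudocount was set to 1 or 0.01, the FPKM minimum was dropped or raised to 5, libraries were centred, the trend was dropped from limma, single libraries were left out, and the replicate number was used as a block; removal of the length trend (lowess, span 0.3) and leaving out both replicate 1 libraries were added after seeing the data. Positions and promoters are from RefSeq on GRCm38.p6. Strands of the matrix genes, exon overlaps, host genes and transcript lengths are from GENCODE on GRCm38. Results of a few single genes outside the set are not reported here.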

Additional observations from a re-analysis of the deposited data

How the results depend on the processing

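Bgn was below an adjusted p of 0.05 in limma in all 15 alternatives (0.00281 to 0.0398), Prelp in 8 of 15 (0.0216 to 0.13) and Serpinf1 in 5 of the 14 that tested it (0.0267 to 0.155). Of the genes of the set that were below an unadjusted p of 0.05 or most abundant in their class, none changed direction in an alternative, and no gene of the set passed adjustment as higher. The median log2 change of the set lay near 0 and did change sign, from -0.003 to 0.025 with no FPKM minimum, 0.058 with a minimum of 5, and 0.028, 0.035 and 0.047 without WT replicate 2, WT replicate 3 and *Fmr1* KO replicate 1. Without WT replicate 1, 1014 loci were higher and 888 lower before adjustment, in place of 922 and 1025. With no FPKM minimum, 6 loci were higher and 9 lower at an adjusted p below 0.05 in place of 12 and 23, 1 gene of the set was lower after adjustment and 11 before it. With a minimum of 5, which leaves Serpinf1, Rcn3 and Timp1 untested, 20 loci were higher after adjustment, 4 genes of the set were lower before adjustment in place of 7, and 0 glycan genes were below an unadjusted p of 0.05 in place of 1. Without the trend in limma, 7 loci were higher and 14 lower after adjustment, and Serpinf1 had an adjusted p of 0.0719. With the length trend removed, 41 loci were higher and 55 lower after adjustment, and 2 glycan genes were below an unadjusted p of 0.05. With both replicate 1 libraries left out, which leaves 4 samples, 12 loci were lower after adjustment, 1 gene of the set was lower, and 3 glycan genes were below an unadjusted p of 0.05. With single libraries left out, the loci after adjustment were 4 to 8 higher and 10 to 14 lower, and before it 607 to 1014 higher and 723 to 1056 lower. In those fits 1 to 2 genes of the set were lower after adjustment, 3 to 8 higher and 5 to 7 lower before it, with 3 higher without WT replicate 1 and also without *Fmr1* KO replicate 3. Receptor genes below an unadjusted p of 0.05 were 1 to 5 (1 without *Fmr1* KO replicate 2 or 3), glycan genes 0 to 3, and the median log2 change was -0.067 (without WT replicate 1) to 0.047. Except where the construction shows it, the cause of these differences was not tested. Unknown depth limits what can be said of the 14 genes under the minimum.

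The replicate numbers are shared by both genotypes, but they were not taken as pairs. The correlation of same-numbered deviations was 0.243, 0.058 and 0.08 for replicates 1 to 3. WT replicate 1 had -0.122 and -0.131 with KO replicates 2 and 3. KO replicate 1 had -0.119 and -0.152 with WT replicates 2 and 3. Both replicate 1 libraries were also the lowest of their genotype for the 10 longest tested genes. Whether same-numbered libraries shared a litter or culture is not stated. With the replicate number as a block, 29 loci were higher and 36 lower after adjustment, the same 3 genes of the set were called, 10 genes of the set were higher before adjustment in place of 6, and 4 glycan genes were below an unadjusted p of 0.05. WT replicates 1 and 3 correlated best with their own number (WT replicate 3 by 0.08 against 0.078), and WT replicate 2 did not.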
